A study of Mus musculus with 14 samples.

Results

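Intracisternal A-particle (IAP) retrotransposons other than the main IAPEz-int body and its IAPLTR promoters were followed in male mouse germ cells that lack a working Dnmt3C gene. Members were the transposable element (TE) subfamilies whose name starts with IAP, leaving out IAPEz-int and every name that starts with IAPLTR. That rule found 14 subfamilies with 9985 annotated copies, out of 1146 subfamilies and 3725827 copies in all, and no measured value entered it. The members were IAPA_MM-int, IAP1-MM_I-int with IAP1-MM_LTR, IAP-d-int, IAPEy-int with IAPEY_LTR, IAPEY2_LTR, IAPEY3-int with IAPEY3_LTR and IAPEY3C_LTR, IAPEY4_I-int with IAPEY4_LTR, and IAPEY5_I-int with IAPEY5_LTR. The largest was IAPEY3-int with 2345 copies and the smallest IAPEY4_LTR with 95.

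Polyadenylated RNA of 14 libraries was sequenced with a stranded kit. Spermatogonia came from testes at postnatal day 14 and were sorted as DAPI-negative, β2-microglobulin-negative and Ep-CAM-positive cells, with 3 Dnmt3C KO/KO (KO) and 3 wild-type (WT) libraries. Spermatocytes came from mice older than 20 days and were sorted as propidium iodide-negative cells by Hoechst staining of DNA, with 4 KO and 4 WT libraries by the labels. All mice were on a C57Bl6/J background. The paper describes collection from littermates, without stating that each WT control was a littermate of its KO. The KO is constitutive, and KO spermatocytes arrest in meiosis, so a WT spermatocyte sort can hold later cells than a KO sort. Stage, age and sort cannot be told apart in this design, nor can fewer cells of a type be told apart from less RNA per cell. Nothing in the labels ties a library to its own animal, so the p-values measure only the spread between these libraries.

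IAP elements are endogenous retroviruses. Each full copy has a long terminal repeat (LTR) at either end, which holds the promoter and the polyadenylation signal, around an internal part (int) that encodes the viral proteins. Just inside the 5′ LTR lies the primer binding site, where a host tRNA, tRNA-Phe for IAP elements, starts reverse transcription. DNMT3C is a rodent DNA methyltransferase that methylates promoters of young retrotransposons in fetal male germ cells.

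A pair of internal starts, from IAPA and from IAPEY4, is printed as an example. The IAPA_MM-int copy dup101 lies at chr13:108002417-108002658 on the minus strand of GRCm38, antisense within an exon of B230220B15Rik. It was chosen because it is a whole IAPA copy with reads in the KO groups alone, 205 in KO spermatogonia and 358 in KO spermatocytes against 0 in both WT groups. The IAPEY4 window at chr13:25007466-25007765 on the plus strand (RefSeq, GRCm38.p6, before the annotated gene Gm52042) holds 260 bases of an IAPEY4_LTR copy and the next 40 bases, which belong to IAPEY4_I-int copy dup397. Capitals mark the primer binding site in both.
IAPA_MM-int_dup101: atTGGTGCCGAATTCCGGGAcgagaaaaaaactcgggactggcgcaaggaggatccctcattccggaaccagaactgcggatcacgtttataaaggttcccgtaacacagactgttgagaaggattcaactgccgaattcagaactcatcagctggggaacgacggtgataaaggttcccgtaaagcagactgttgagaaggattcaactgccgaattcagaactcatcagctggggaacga
IAPEY4_I-int_dup397: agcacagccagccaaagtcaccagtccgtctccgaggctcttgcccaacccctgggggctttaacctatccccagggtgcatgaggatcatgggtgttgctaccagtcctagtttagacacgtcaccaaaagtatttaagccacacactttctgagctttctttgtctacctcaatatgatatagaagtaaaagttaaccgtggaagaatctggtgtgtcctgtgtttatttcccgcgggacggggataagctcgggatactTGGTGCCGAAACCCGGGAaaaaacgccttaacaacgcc

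Of the 18 bases of the site, 16 were the same in both copies. The differences were A11T and C12T, with the IAPEY4 base named before the position and the IAPA base after it, counted from 1 at the 5′ end of the site. The IAPA copy also held an exact repeat of 56 bases, at positions 108 to 163 and again at 187 to 242. The last 59 bases of the 5′ LTR were identical in 4 IAPEY4 elements, those of IAPEY4_LTR copies dup66 (in the window above), dup72 (chr14:41053669-41053727, plus strand), dup91 (chr19:9836839-9836897, minus strand) and dup86 (chr16:90349547-90349605, minus strand). They are shown because the internal parts after dup72 and dup91 were among the most expressed of all IAPEY4 copies.
IAPEY4_LTR_dup72: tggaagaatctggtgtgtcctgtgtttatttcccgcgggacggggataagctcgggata

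Libraries held 40555726 to 53323651 counts over genes and TE subfamilies. The members together took 0.0396% ± 0.00232 (SD, n = 3) of all counts in KO spermatogonia and 0.0200% ± 0.00260 in WT spermatogonia. In spermatocytes the share was 0.0375% ± 0.00355 (n = 4) in KO and 0.00374% ± 0.00319 in WT. Among WT spermatocyte libraries replicate 3 stood apart, with the highest member share, 0.00849%, and the highest level of 11 of the 14 members. It also had a lower summed level of pachytene markers, 7965 CPM (counts scaled to a library of 1000000) against 12465 to 12848 in the other 3, and the highest summed level of spermatid markers, 1099 against 44.97 to 360 CPM. Summed early meiotic markers (1873 against 1050 to 1159 CPM) and spermatogonial markers (394 against 165 to 367 CPM) were highest there too. Pachytene markers summed to 231 to 376 CPM in KO spermatocytes, and to 126 to 157 CPM in KO and 282 to 1609 CPM in WT spermatogonia. Spermatogonial markers summed to 1011 to 1545 CPM in all 6 spermatogonia libraries, to 375 to 959 CPM in KO spermatocytes and to 165 to 394 CPM in WT spermatocytes, where 5 of the 8 were called higher in KO and 1 lower (median difference 2.76). In KO spermatocytes all 5 Leydig markers, 3 of 4 peritubular markers and all 4 macrophage markers were called higher than in WT spermatocytes, with Leydig sums of 53.4 to 318 CPM against 13.9 to 29.5, peritubular sums of 15.4 to 147 against 2.82 to 9.10 and macrophage sums of 14.6 to 65.97 against 3.07 to 4.05. The part of these spermatogonial and somatic markers in the spermatocyte results was not tested. The count of Dnmt3c itself does not check the genotype, since it was 116, 58 and 67 in KO spermatogonia and 89, 65 and 53 in WT, and 55, 56, 52 and 57 in KO spermatocytes against 28, 11, 19 and 25 in WT.

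Levels are given in CPM after TMM scaling of all 14 libraries together. A difference is a log2 fold change of KO over WT with its standard error (SE), and it is called at an adjusted p under 0.01 in edgeR's quasi-likelihood test over all genes and TE subfamilies. In spermatogonia 1 of 14 members, IAPA_MM-int, was called, beside 0.76% of the TE subfamilies and 0.0741% of all features tested. The median difference over the members was 0.86 against -0.03 over all TE subfamilies, 12 of the 14 were higher in KO, and 8 had an unadjusted p under 0.05. For 9 members every KO library lay above every WT library, which held for 5.54% of TE subfamilies. In spermatocytes 10 of 14 were called, all higher in KO, beside 11.7% of TE subfamilies called higher and 57.4% of all features called either way. With library totals in place of TMM, 11 members and 255 of 929 TE subfamilies were called higher and 71 lower, against 109 higher and 130 lower with TMM. The median over the members was 2.12 with TMM, against 0.10 over all TE subfamilies, and 11 members did not overlap between genotypes, beside 22.3% of TE subfamilies with KO above WT. Spermatocyte replicates 1 and 4 were closer to each other than any other pair, with a chi-square per degree of freedom of 12.1 in KO and 15.7 in WT against 139 to 308 for the other pairs, which is still above sampling noise. With that pair summed to 1 library in each genotype, 5 of the 10 calls stayed (IAPA_MM-int, IAPEy-int, IAP1-MM_I-int, IAP-d-int and IAPEY5_I-int).

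**Figure D1:**
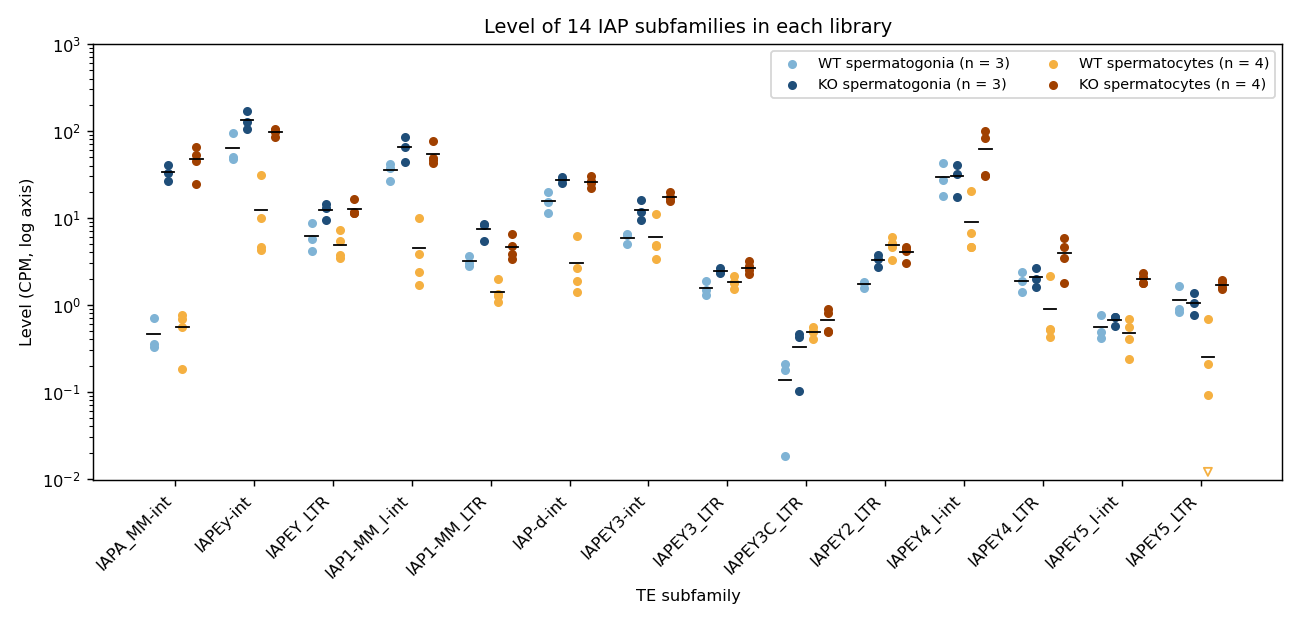
Level of each of the 14 subfamilies in every library, in CPM on a log axis. Points are libraries, short black lines are group means, and the open triangle at the lower edge marks a library with 0 counts. IAPA_MM-int separates KO from WT libraries at both stages, from 24.4 to 65.8 CPM against at most 0.765, while IAPEY4_I-int overlaps between genotypes in spermatogonia.

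IAPA_MM-int is a short stretch at the start of the internal part, and was the member with the largest difference at both stages. In KO spermatogonia its level was 40.5, 32.6 and 26.7 CPM, and in WT spermatogonia 0.328, 0.358 and 0.710. KO spermatocytes had 45.5, 24.4, 65.8 and 53.3 CPM, and WT spermatocytes 0.556, 0.181, 0.695 and 0.765. Every KO library was far above every WT library. The difference was 6.12 ± 0.37 in spermatogonia (69.8-fold, edgeR adjusted p = 0.00126) and 6.44 ± 0.55 in spermatocytes (86.6-fold, edgeR adjusted p = 1.04e-05). It was called with each library left out in turn, the least firmly without KO spermatogonia replicate 2 (adjusted p = 0.00994). Per kilobase of annotated sequence IAPA_MM-int was the highest member in both KO groups, at 0.880 ± 0.184 CPM per kb in spermatogonia and 1.25 ± 0.463 in spermatocytes, against 0.0106 ± 0.00554 and 0.00967 ± 0.00555 in WT.

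Reads over single copies showed which IAPA copies carried that level. Of the 126 IAPA_MM-int copies, 59 directly follow an IAPLTR1_Mm repeat (a TE copy within 50 bp upstream), and these took 99.9% of IAPA reads in KO spermatogonia and 99.7% in KO spermatocytes. Their reads per library were 2340, 1835 and 1488 in KO spermatogonia and 16, 14 and 29 in WT, and 2213, 1336, 3423 and 2597 in KO spermatocytes against 1, 2, 16 and 5 in WT. Copies behind other promoters stayed near 0. The 17 copies behind IAPLTR2_Mm had 1, 1 and 0 reads in KO spermatogonia, the 16 behind IAPLTR2a 3, 0 and 0, and the 13 behind IAPLTR2a2_Mm and 7 behind IAPLTR2b none. Copies behind IAPLTR1_Mm were also shorter, with a median of 243 bp against 368 bp behind IAPLTR2_Mm and 383 bp behind IAPLTR2b. Downstream, 114 of the 126 copies run on into IAPEz-int. Those IAPEz-int pieces were 1.56% of IAPEz-int copies and held 2.71% of IAPEz-int reads in KO spermatogonia, 2.96% in KO spermatocytes, 0.929% in WT spermatogonia and 0.852% in WT spermatocytes.

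**Figure D2:**
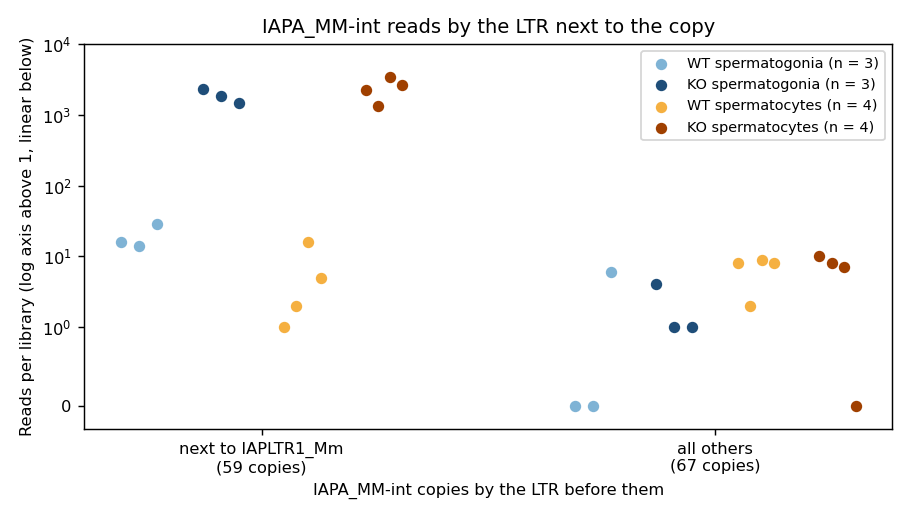
Reads of IAPA_MM-int copies in each library, split by the LTR next to the copy, on an axis that is logarithmic above 1 read and linear below. Each point is 1 library. The 59 copies next to IAPLTR1_Mm had 1336 to 3423 reads in each KO library and at most 29 in a WT library, while all other copies together had at most 10 reads in any library.

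Few IAPA copies made up most of the signal. In KO spermatogonia 2 copies gave over 50% of the reads and in KO spermatocytes 3 did. Copy dup80 (chr10:65955532-65955786, minus strand, outside any gene) had 798, 679 and 529 reads in KO spermatogonia against 3, 0 and 0 in WT, and 489, 374, 796 and 753 in KO spermatocytes against 0, 0, 1 and 1. Copy dup58 (chr8:102009688-102009942, minus strand, intergenic) had 506, 379 and 261 reads in KO spermatogonia and 677, 135, 650 and 570 in KO spermatocytes, with none in any of the 7 WT libraries. These were the only member copies called in spermatogonia by limma on log2(TPM + 0.1), with adjusted p = 0.00132 for dup80 and 0.00101 for dup58. Neither was called when replicate numbers were kept as a block. In spermatocytes limma called 17 of 37 IAPA_MM-int copies higher, these included. Also among the 5 member copies with the largest rise there were dup83 (chr11:12512009-12512263) and dup51 (chr7:137894772-137895013), with 170, 146, 436 and 214 reads and 120, 32, 157 and 118 reads in KO and none in WT. Near-identical copies share reads, so a count for 1 copy is the share that the authors' counting assigned to it.

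IAPEy-int, the internal part of the IAPEY elements, took the most counts of all members in KO spermatogonia. Its level was 106, 169 and 126 CPM in KO spermatogonia, 47.8, 50.1 and 93.5 in WT spermatogonia, 85.2, 102, 105 and 96.3 in KO spermatocytes, and 4.60, 9.92, 30.9 and 4.28 in WT spermatocytes. KO lay above WT without overlap at both stages. In spermatogonia the difference of 1.04 ± 0.27 was not called (edgeR adjusted p = 0.220, 2.06-fold), and in spermatocytes it was called at 3.01 ± 0.59 (edgeR adjusted p = 0.00126, 8.05-fold). Without WT spermatocyte replicate 3 the spermatocyte difference was 3.98 ± 0.35. IAPEY_LTR, the repeat most often found directly upstream of an IAPEy-int copy (340 copies), had 9.54, 14.5 and 12.9 CPM in KO spermatogonia against 4.17, 5.69 and 8.63 in WT (0.97 ± 0.31, edgeR adjusted p = 0.395), and 11.3, 16.5, 11.5 and 11.8 in KO spermatocytes against 3.43, 5.36, 7.23 and 3.72 in WT (1.40 ± 0.34, edgeR adjusted p = 0.00410). That call held in 4 of the 8 fits that left out 1 library.

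IAPEy-int reads came mainly from copies preceded by another IAPEy-int copy, and mainly from copies followed by an IAPEY_LTR. Upstream and downstream neighbours were counted apart. The 314 copies followed by IAPEY_LTR were 41.6% of copies. They held 81.7% and 83.1% of reads in KO and WT spermatogonia and 82.5% and 85.5% in KO and WT spermatocytes. The 162 copies preceded by another IAPEy-int copy were 21.5% of copies and held 76.5% of reads in KO spermatogonia, 79.7% in WT spermatogonia, 76.0% in KO spermatocytes and 77.0% in WT spermatocytes. In contrast, the 200 copies with a member LTR on both sides made up 62.2% of the annotated length and held 1.76%, 0.641%, 3.43% and 8.03% of reads in the same order. The share of reads from the 162 copies preceded by another IAPEy-int copy was thus close in all 4 groups, while the number of their reads was higher in KO. The copy with the most reads in both KO groups was dup100 (chr3:70572777-70575492, plus strand, 2716 bp, intergenic). It had 1085, 1329 and 1071 reads in KO spermatogonia, 356, 208 and 620 in WT spermatogonia, 738, 915, 957 and 971 in KO spermatocytes and 5, 27, 84 and 1 in WT spermatocytes. The piece with the highest TPM in spermatogonia was short, dup648 (chr13:93198997-93199161, intergenic), with 126, 237 and 166 reads in KO and 55, 77 and 1 in WT. A further copy, dup222 (chr9:13754622-13757339, antisense to Mtmr2), overlapped between genotypes before meiosis, with 601, 972 and 665 reads in KO spermatogonia and 412, 369 and 962 in WT. Its summed reads exceeded those of dup100 in WT spermatogonia (1743 against 1184) and in WT spermatocytes (210 against 117).

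IAP1-MM_I-int and IAP-d-int are further internal parts, the first with its own IAP1-MM_LTR. IAP1-MM_I-int had 85.8, 43.6 and 64.6 CPM in KO spermatogonia against 41.9, 26.4 and 37.6 in WT, and 46.7, 43.1, 77.6 and 48.3 in KO spermatocytes against 2.38, 3.83, 9.89 and 1.70 in WT. KO libraries lay above WT libraries at each stage, narrowly in spermatogonia (0.84 ± 0.27, edgeR adjusted p = 0.375) and widely in spermatocytes (3.64 ± 0.54, 12.4-fold, edgeR adjusted p = 0.000266). IAP-d-int had the same order of groups, with 27.9, 25.3 and 29.7 CPM against 11.4, 15.3 and 19.8 in spermatogonia (0.80 ± 0.22, edgeR adjusted p = 0.264) and 22.3, 26.9, 30.1 and 25.03 against 1.42, 2.62, 6.13 and 1.88 in spermatocytes (3.15 ± 0.46, 8.85-fold, edgeR adjusted p = 0.000249). Without WT spermatocyte replicate 3 the spermatocyte differences were 4.38 ± 0.40 for IAP1-MM_I-int and 3.75 ± 0.34 for IAP-d-int. IAP1-MM_LTR had 8.46, 5.44 and 8.32 CPM in KO spermatogonia against 3.65, 2.79 and 3.02 in WT. That difference of 1.20 ± 0.29 was not called by edgeR (adjusted p = 0.176) and was called by DESeq2 (adjusted p = 0.00231). In spermatocytes IAP1-MM_LTR rose by 1.73 ± 0.38 (edgeR adjusted p = 0.00233), a call lost without WT replicate 1 (adjusted p = 0.0101).

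Among IAP1-MM_I-int copies, those behind MMERVK10C-int held a larger share of reads in KO spermatocytes, pooled over libraries and not tested between groups. The 22 copies that directly follow MMERVK10C-int, the internal part of another endogenous retrovirus, were 4.59% of copies and held 43.7% of IAP1-MM_I-int reads in KO spermatocytes, against 15.7% in KO spermatogonia, 17.0% in WT spermatogonia and 17.7% in WT spermatocytes. Copy dup390 (chr12:74310004-74310118, 115 bp, minus strand, intergenic) had 485, 163, 622 and 626 reads in KO spermatocytes and 1, 0, 20 and 3 in WT, with 88, 87 and 58 in KO spermatogonia and 46, 23 and 12 in WT. Copy dup232 (chr8:40140361-40140468, 108 bp, plus strand, intergenic) had 377, 87, 390 and 391 reads in KO spermatocytes and 0, 0, 15 and 0 in WT (limma adjusted p = 0.00213). Copy dup344 (chr10:63394460-63394587, antisense in an intron of Dnajc12) had 189, 67, 291 and 255 reads against 1, 0, 5 and 0 (limma adjusted p = 0.00166). Among KO spermatocyte libraries, replicate 2 was the lowest for each of these short pieces. It had 163, 87 and 67 reads of dup390, dup232 and dup344 among 2406 IAP1-MM_I-int counts, while replicate 1 had 485, 377 and 189 among 2310. The pooled share thus rests mostly on replicates 1, 3 and 4. Longer pieces of the subfamily differed among themselves in spermatogonia. Copy dup447 (chr17:34543814-34544066, antisense in an intron of the pseudogene Btnl7-ps) had 191, 62 and 122 reads in KO spermatogonia and 137, 68 and 143 in WT, while copy dup58 of IAP1-MM_I-int (chr3:97376351-97379005, intergenic) had 394, 186 and 360 against 2, 11 and 20.

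IAPEY3-int had 9.52, 15.9 and 11.8 CPM in KO spermatogonia against 5.03, 6.49 and 6.30 in WT (1.03 ± 0.27, edgeR adjusted p = 0.220). In spermatocytes it had 17.0, 15.7, 20.02 and 17.2 CPM against 4.75, 3.35, 11.1 and 4.84 (1.57 ± 0.39, edgeR adjusted p = 0.00515), a call that held in 2 of 8 fits without 1 library. The LTR subfamilies that share its name, IAPEY3_LTR (0.63 ± 0.29 and 0.58 ± 0.32) and IAPEY3C_LTR (1.23 ± 0.85 and 0.50 ± 0.38, at most 47 counts in any library), were called at neither stage. They directly precede 80 and 13 IAPEY3-int copies, against 371 preceded by IAPEY_LTR. IAPEY2_LTR was the only member below 0 in spermatocytes, with 4.14, 3.03, 4.38 and 4.60 CPM in KO and 4.66, 3.32, 6.11 and 5.18 in WT (-0.23 ± 0.34, edgeR adjusted p = 0.546), and its sign turned to 0.43 when library totals replaced TMM scaling. In spermatogonia its level was 2.69, 3.75 and 3.39 CPM in KO and 1.56, 1.83 and 1.80 in WT (0.89 ± 0.29, edgeR adjusted p = 0.393).

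IAPEY4_I-int was expressed in spermatogonia of both genotypes. WT spermatogonia had 42.6, 27.1 and 18.04 CPM and KO spermatogonia 41.03, 32.1 and 17.4. The genotypes overlapped throughout, with a difference of -0.00 ± 0.39 and a 95% interval of -0.76 to 0.76. In spermatocytes the 4 KO libraries had 100, 30.6, 31.5 and 83.3 CPM and the WT libraries 4.66, 6.66, 20.2 and 4.66 (2.80 ± 0.60, 6.96-fold, edgeR adjusted p = 0.00208). Treating replicates 1 and 4 as 1 library ended that call (adjusted p = 0.0152), and without WT replicate 3 the difference was 3.55 ± 0.52. IAPEY4_LTR, which directly precedes 21 IAPEY4_I-int copies, showed 0.11 ± 0.34 in spermatogonia and 2.13 ± 0.62 in spermatocytes, the latter just short of a call (edgeR adjusted p = 0.0104) and called without WT replicate 3 (3.02 ± 0.50, adjusted p = 0.000649).

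Within each group the order of IAPEY4_I-int followed the summed level of 5 Sertoli cell markers (Sox9, Amh, Wt1, Cldn11 and Gata4) closely but not fully. That sum was 391, 152 and 122 CPM in KO spermatogonia and 327, 152 and 86.2 in WT spermatogonia. It was 278, 97.8, 63.1 and 246 CPM in KO spermatocytes and 32.8, 32.2, 95.6 and 27.97 in WT spermatocytes. The libraries with the most Sertoli marker RNA in their group, replicate 1 in 3 groups and replicate 3 of the WT spermatocytes, were also those with the most IAPEY4_I-int. Spermatogonia were sorted as β2-microglobulin-negative and Ep-CAM-positive cells, and their libraries still held 86.2 to 391 CPM of Sertoli marker RNA. In KO spermatocytes the Leydig marker sums of 318, 53.4, 59.3 and 260 CPM had the same order of libraries as IAPEY4_I-int, and in spermatogonia, where they were at most 9.10 CPM, they did not. None of the 5 Sertoli markers was called in spermatogonia and 1 was called higher in KO spermatocytes. The part of Sertoli or Leydig cell RNA in the IAPEY4_I-int level was not tested.

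IAPEY4_I-int reads came from long copies. The 64 copies of at least 2000 bp were 12.3% of copies and 81.1% of the annotated length, and held 96.6% of reads in KO spermatogonia and 96.2% in KO spermatocytes. Only 17 copies have a member LTR on both sides, 3.26% of all, and these held 63.4% and 64.1% of reads in KO and WT spermatogonia and 67.4% and 66.9% in KO and WT spermatocytes. Copy dup407 (chr14:41053728-41061339, plus strand, overlapping an exon of Gm47547), which follows the LTR end printed above, had 139, 166 and 58 reads in KO spermatogonia and 170, 91 and 52 in WT. It had 773, 188, 276 and 708 reads in KO spermatocytes against 28, 44, 146 and 10 in WT. Copy dup498 (chr19:9829174-9836838, minus strand, on the strand of AC132253.9), with the same LTR end, had 645, 206 and 173 reads in KO spermatogonia, 730, 249 and 181 in WT spermatogonia, 591, 223, 172 and 629 in KO spermatocytes and 12, 31, 111 and 13 in WT spermatocytes. A single IAPEY4_I-int copy separated the genotypes in spermatogonia, dup275 (chrX:83867770-83875295, antisense to Dmd), with 45, 60 and 40 reads in KO against 1, 5 and 0 in WT. It lies between RLTR46A2 repeats and not between IAPEY4 LTRs. The copies dup100, dup222, dup275, dup407 and dup498, IAP1-MM_I-int copy dup58 and the copies whose sequence is printed were picked after their values were seen.

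**Figure D3:**
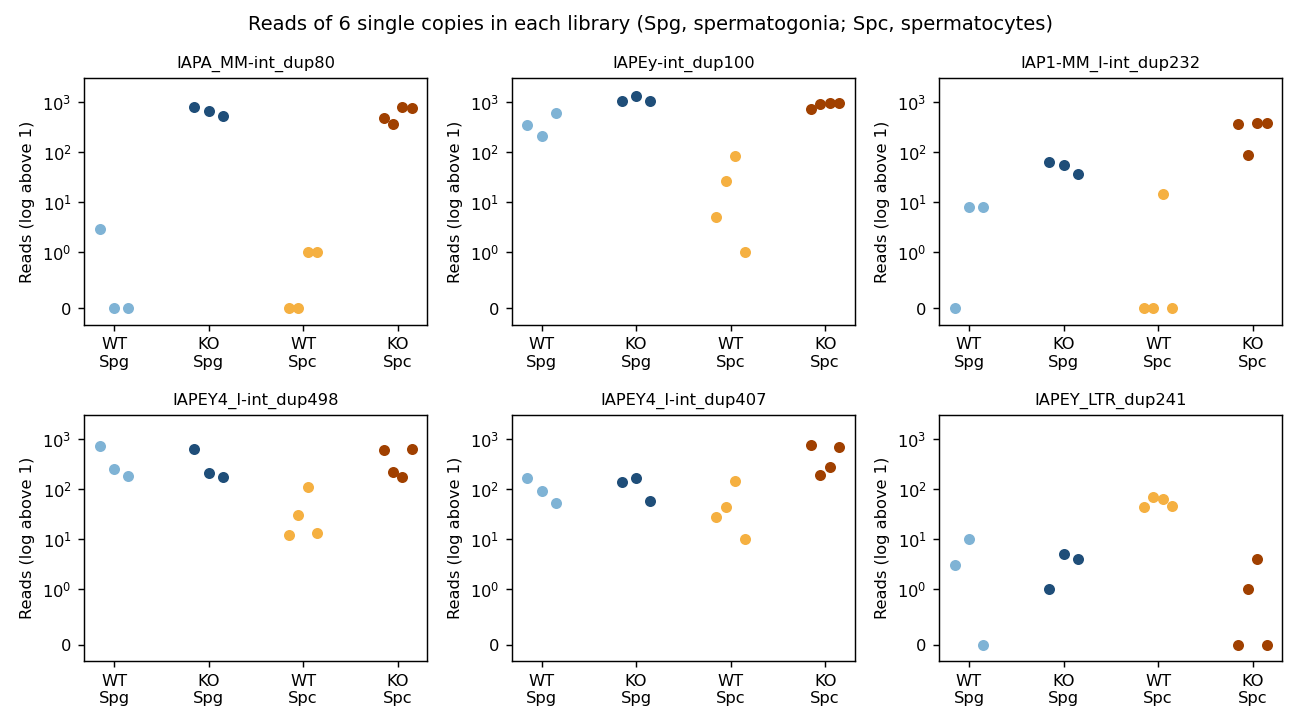
Reads of 6 single copies in every library, on axes that are logarithmic above 1 read and linear below (Spg, spermatogonia, n = 3 a genotype; Spc, spermatocytes, n = 4 a genotype). IAPA_MM-int dup80 is at most 3 in WT libraries and at least 374 in KO libraries, IAPEY4_I-int dup498 overlaps between genotypes in spermatogonia, and IAPEY_LTR dup241 is highest in WT spermatocytes.

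The IAPEY5 pair was lowly expressed and moved in spermatocytes. The copy with the most reads held 65.2% of IAPEY5_I-int reads in KO spermatocytes and 42.9% in WT. For IAPEY5_LTR the top copy held 49.1% and 59.5%. IAPEY5_I-int had 88, 100, 123 and 104 counts in KO spermatocytes and 13, 8, 23 and 20 in WT (2.10 ± 0.42, edgeR adjusted p = 0.00143). In spermatogonia it had 33, 41 and 41 counts in KO against 44, 21 and 27 in WT, a difference of 0.23 ± 0.39. IAPEY5_LTR had 79, 101, 100 and 74 counts in KO spermatocytes against 3, 7, 29 and 0 in WT (2.74 ± 0.78, edgeR adjusted p = 0.00993), a call that only the fit without WT replicate 3 kept (4.03 ± 0.73) among the 8 that left out 1 library. It overlapped between genotypes in spermatogonia, at 45, 77 and 59 counts in KO and 48, 45 and 91 in WT.

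**Figure D4:**
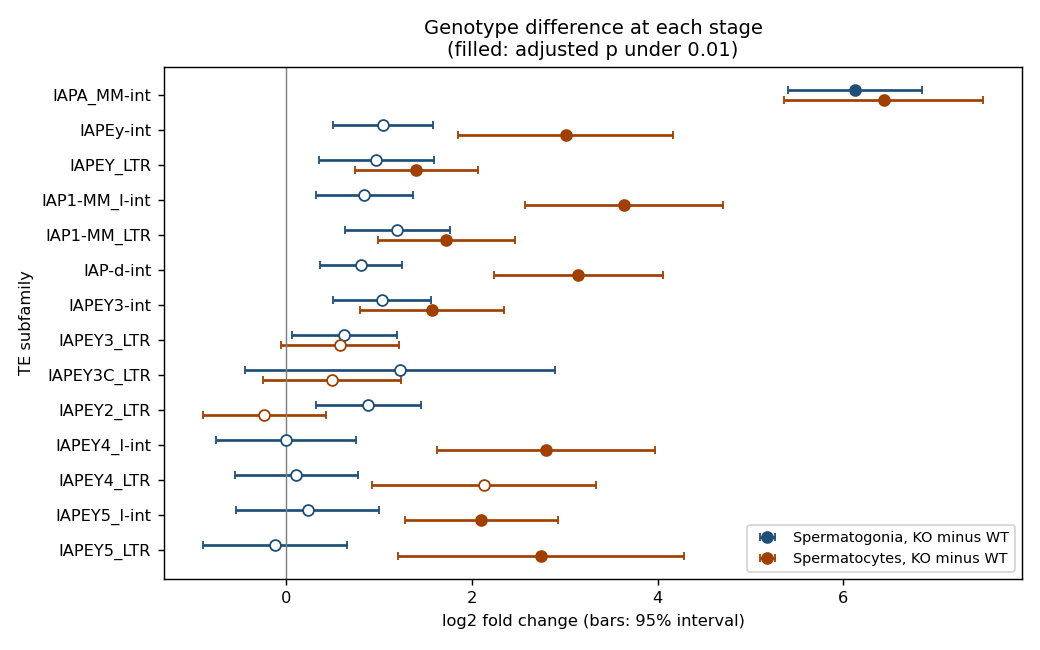
Log2 fold change of KO over WT for each subfamily in spermatogonia (blue) and spermatocytes (brown), with bars for the 95% interval. Filled points have an edgeR adjusted p under 0.01. IAPA_MM-int is alone in being called at both stages, and IAPEY4_I-int lies at 0 in spermatogonia and at 2.80 in spermatocytes.

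Whether the genotype effect itself differed between stages was tested as a contrast over all 14 libraries, which uses the same samples as the comparisons above. It was larger in spermatocytes for IAP1-MM_I-int (2.72 ± 0.69, edgeR adjusted p = 0.00657) and IAP-d-int (2.27 ± 0.57, adjusted p = 0.00669), 2 of 14 members beside 1.64% of TE subfamilies called higher. Each was called in 8 of the 14 fits without 1 library, and the highest adjusted p, without KO spermatogonia replicate 2, were 0.0168 and 0.0153. With replicates 1 and 4 summed neither was called. IAPEY4_I-int (2.71 ± 0.82, adjusted p = 0.0167), IAPEY5_LTR (2.79 ± 0.98, adjusted p = 0.0333) and IAPEy-int (1.90 ± 0.76, adjusted p = 0.0559) were as large or nearly so but less firm. Without WT spermatocyte replicate 3 the number called was 6, IAPEy-int among them (2.87 ± 0.47, adjusted p = 0.000300), and IAP1-MM_I-int and IAP-d-int then stood at 3.46 and 2.87. For IAPA_MM-int the difference between stages was 0.27 ± 0.63 (adjusted p = 0.753, 95% interval of -0.95 to 1.495), an interval that still holds differences of over 1 log2 unit.

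The stages were also compared within each genotype. From WT spermatogonia to WT spermatocytes 4 members fell and 1 rose, beside 2.76% of TE subfamilies called lower and 22.7% called higher. IAP1-MM_I-int fell by 2.98 ± 0.49 on the log2 scale (edgeR adjusted p = 0.000160), IAPEy-int by 2.35 ± 0.54 (adjusted p = 0.00174), IAP-d-int by 2.35 ± 0.41 (adjusted p = 0.000225) and IAP1-MM_LTR by 1.15 ± 0.33 (adjusted p = 0.00744), while IAPEY2_LTR rose by 1.48 ± 0.31 (adjusted p = 0.000928). With library totals in place of TMM, 6 members fell and 0 rose, beside 89 TE subfamilies lower and 90 higher of 978, and the rise of IAPEY2_LTR was 0.69 (adjusted p = 0.0856). Without WT spermatocyte replicate 3 the falls of IAP1-MM_I-int, IAPEy-int and IAP-d-int were -3.72, -3.33 and -2.95. The rise of IAPEY2_LTR was also not called without WT spermatogonia replicate 1 (adjusted p = 0.0116). IAPEz-int, for comparison, had 0.47 ± 0.30 in the same contrast (adjusted p = 0.192), and -0.29 with library totals in place of TMM. Summed spermatogonial markers were 1011 to 1398 CPM in WT spermatogonia and 165 to 394 in WT spermatocytes. Between KO spermatogonia and KO spermatocytes edgeR called 0 of 14 members, beside 1.43% of TE subfamilies, and 4 did not overlap, beside 19.9%. In that contrast 1 member had an unadjusted p under 0.05 and DESeq2 called 1, IAPEY5_I-int (edgeR 1.58 ± 0.39, adjusted p = 0.0241). IAPEy-int was lower in all 4 KO spermatocyte libraries than in the 3 KO spermatogonia libraries (-0.46 ± 0.53, adjusted p = 0.622).

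Single copies moved in both directions. In spermatocytes limma called 73 member copies higher and 12 lower in KO of 401 tested, beside 7.17% higher and 4.06% lower over all TE copies. These TPM sum to 1000000 over TE copies alone, and when they were multiplied by the TE share of each library the member calls were 147 higher and 7 lower, beside 33260 higher and 5937 lower of 241893 copies. In spermatogonia it called 2 higher and 0 lower of 441, beside 0.00872% higher. Among the 12 lower copies 5 were IAPEY2_LTR, and 3 of these were among the 5 steepest falls. IAPEY2_LTR dup970 (chr17:46846644-46846984, antisense in an intron of Bicral) had 0 reads in all 4 KO spermatocyte libraries and 29, 11, 31 and 16 in WT (limma adjusted p = 0.000362), while Bicral itself showed 0.07 ± 0.29 (edgeR adjusted p = 0.8292). The other IAPEY2_LTR copies of that set, both intergenic, were dup356 (chr6:73488209-73488526), with 0 reads in KO and 20, 7, 19 and 20 in WT, and dup743 (chr11:121864500-121864853), with 2, 0, 0 and 0 against 24, 10, 28 and 19. IAPEY_LTR dup241 (chr6:87952512-87952885, minus strand, intergenic) had 0, 1, 4 and 0 reads in KO against 44, 68, 62 and 45 in WT (limma adjusted p = 0.000752), and no more than 10 in any spermatogonia library. IAPEY3C_LTR dup98 (chr5:87839622-87839912) lies in an exon of the antisense RNA gene Gm42794 on the same strand, with 0 reads in KO and 9, 9, 10 and 10 in WT. The count of Gm42794 was 0, 2, 1 and 1 in KO spermatocytes and 249, 150, 126 and 171 in WT (-7.89 ± 0.68, edgeR adjusted p = 1.08e-05).

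An IAPEY2_LTR copy with this pattern, dup91, is printed over the window chr2:52131488-52131787 (plus strand, RefSeq GRCm38.p6), which is the annotated promoter of Gm52510. Capitals mark each CpG, the site of DNA methylation. The copy had 2, 7, 0 and 9 reads in KO spermatocytes and 28, 14, 31 and 20 in WT (-2.91 ± 0.73, edgeR on recovered reads, adjusted p = 0.000904).
IAPEY2_LTR_dup91: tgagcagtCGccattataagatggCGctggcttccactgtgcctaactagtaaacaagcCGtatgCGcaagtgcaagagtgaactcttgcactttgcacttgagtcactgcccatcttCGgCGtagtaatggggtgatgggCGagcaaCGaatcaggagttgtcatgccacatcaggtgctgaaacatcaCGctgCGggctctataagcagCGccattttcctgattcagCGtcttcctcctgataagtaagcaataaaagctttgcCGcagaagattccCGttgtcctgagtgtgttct

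It holds 14 CpG, against a median of 7 and quartiles of 3 and 20 over 32817 promoter windows of the same length. Motifs of 3 transcription factors raised by the study were searched on both strands of the printed sequences. An exact match to the full NRF1 palindrome was in none, and it is in 0.966% of all windows. Partial or mismatched NRF1 sites were not searched. The IAPA copy is internal sequence without its LTR, and the LTR ends of dup72, dup91 and dup86 are 59 bases each. Whether the promoters of the members hold NRF1 sites was thus not tested. TGACGTCA, the cAMP response element bound by CREB1, was in none, and it is in 1.79% of windows, while its part TGACG was in the IAPEY4 window and in 20.8% of all windows. TGGGAA, the core of the RBPJ site, was in none and is in 25.6% of windows. The core TATA box, TATAAA, occurred in the IAPA copy in 1 stretch, tttataaa, which matches on both strands, and is in 13.6% of windows.

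Counting whole reads per copy gave more calls. With edgeR on the reads recovered from TPM, 36 of 185 member copies were higher in KO spermatogonia, beside 13.6% of all TE copies, and 97 of 120 in KO spermatocytes, beside 47.9%, with 6 lower, beside 17.5%. Among them in spermatogonia were 11 of 12 IAPA_MM-int copies, 10 of 58 IAPEy-int, 8 of 33 IAP1-MM_I-int and 1 of 16 IAPEY4_I-int. Among those in spermatocytes were 12 of 12 IAPA_MM-int, 29 of 36 IAPEy-int, 15 of 18 IAP1-MM_I-int, 11 of 12 IAP-d-int and 15 of 17 IAPEY4_I-int. A copy enters this test only with enough reads, so one that was high in a single genotype passed through that genotype. Both stages shared 24 of the called copies, 66.7% of the spermatogonia list and 24.7% of the spermatocyte list.

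Member copies mostly lie outside genes. Of all members 86.4% of copies overlapped no annotated gene, against 55.0% of all TE copies, and 4.95% overlapped a gene on their own strand, against 20.02%. Copies without a gene held 69.4% of member reads in KO spermatogonia, 54.5% in WT spermatogonia, 69.9% in KO spermatocytes and 61.4% in WT spermatocytes. For IAPEY4_I-int 6.53% of copies overlapped a gene on the same strand, and these held 50.1% of its reads in KO spermatogonia, 57.5% in WT spermatogonia, 47.9% in KO spermatocytes and 49.7% in WT spermatocytes. For IAP-d-int the same class was 5.37% of copies and held 11.7%, 19.0%, 7.90% and 42.2% of reads in that order. Whether those reads start in the element or in the gene model cannot be read from these counts.

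Of 20 genes that silence retrotransposons none was called in spermatogonia (9 of 20659 genes were called in all). In spermatocytes 4 were higher in KO, the chromatin remodellers Hells (2.65 ± 0.38) and Atrx (3.59 ± 0.60), Resf1 (2.23 ± 0.41) and the piRNA pathway gene Tex15 (2.54 ± 0.41), and 6 were lower, among them the KAP1 gene Trim28 (-1.49 ± 0.21), the methyltransferase cofactor Dnmt3l (-2.45 ± 0.57, called in 5 of 8 fits without 1 library) and the piRNA genes Mael (-3.31 ± 0.29) and Tdrd9 (-2.47 ± 0.25). Uhrf1, also among the 6 lower (-0.78 ± 0.22), was called in 1 of 8 fits without 1 library. Without WT spermatocyte replicate 3 the differences were 4.53 for Atrx and 3.18 for Tex15. With library totals in place of TMM, Dnmt3c, Setdb1, Morc1 and Morc2a were called higher as well, at an edgeR adjusted p of at most 0.00642. Dnmt3l (adjusted p = 0.0202) and Uhrf1 (adjusted p = 0.868) then lost their calls. In this comparison 12885 of 21919 genes were called. Of the 4 transcription factors raised by the study, none was called in spermatogonia, and Creb1 (0.80 ± 0.21, edgeR adjusted p = 0.00692) and Rbpj (1.38 ± 0.36, adjusted p = 0.00645) were higher in KO spermatocytes, although with 1 library left out Creb1 was called in 2 of 8 fits (highest adjusted p = 0.0324, without WT replicate 1) and Rbpj in 1 of 8 (0.0188, without WT replicate 4). There Nr0b1 (1.66 ± 0.49, adjusted p = 0.0121) and Nrf1 (0.47 ± 0.24, adjusted p = 0.106) were not called. With library totals in place of TMM all 4 were called, Nr0b1 at 2.22 (edgeR adjusted p = 0.00473) and Nrf1 at 1.14 (edgeR adjusted p = 0.00924).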

How the data were processed

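Polyadenylated RNA of sorted germ cells was sequenced by the authors, trimmed with cutadapt 4.0 and aligned to GRCm38 with STAR 2.7.3a, keeping up to 100 alignments a read. The authors deposited counts per gene and TE subfamily (TEtranscripts) and TPM per TE copy (TElocal), which sums to 1000000 over TE copies alone. Their fold changes and p-values from DESeq2 1.44.0 were not used. One replicate per genotype of spermatogonia, left out by the authors for RNA quality, was not analysed here. Counts were fitted with edgeR 4.0.16 in R 4.3.3 (quasi-likelihood, filterByExpr, TMM, Benjamini-Hochberg) and TPM with limma 3.58.1 on log2(TPM + 0.1) for copies with a mean of at least 0.5. Whole reads, recovered from TPM and copy length for 100% of values (tolerance 0.01), were fitted with edgeR as an alternative chosen after seeing the data. DESeq2 1.42.0, other scalings, filters and thresholds, left-out libraries and replicate blocks were further alternatives. Counting precision was small beside the spread: the 95% Wilson half-width of a member share was at most 0.000602%, for counting error only. The labels do not say whether replicate numbers pair libraries. In spermatogonia same-numbered deviations correlated at 0.519, 0.167 and 0.181, but 1 unlike-numbered pair (KO 2 with WT 3) reached 0.263, so these values do not settle it. The study states 3 biological replicates for its spermatocyte comparison; the labels give 4 libraries a genotype, and all 4 were used. Methods were tested on simulated counts. Neighbours of a copy are TE copies within 50 bp. Every member was named, and single copies were the 5 with the largest rise, fall and level at each stage, with others marked as examples. Members, gene lists and tests were chosen with earlier results of these data known.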

Additional observations from a re-analysis of the deposited data

Results flagged for a closer look

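In 28 groups of 4 spermatocyte libraries, 1 per member and genotype, 4 held a library set apart from the rest by Dixon's gap test, where chance alone sets apart about 1 in 20. IAPEY4_I-int stood at 20.2 CPM in WT replicate 3, with the next library at 6.66, and IAPEY4_LTR at 2.16 CPM in the same library, with the next at 0.522. IAP1-MM_I-int stood at 77.6 CPM in KO replicate 3, above 48.3, and IAPEY_LTR at 16.5 CPM in KO replicate 2, above 11.8. The genotype effect differed between stages for IAP-d-int, by 2.27 on the log2 scale, and for IAP1-MM_I-int, by 2.72, in edgeR's test of that difference.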

How the results depend on the processing

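The number of members called was 1 in spermatogonia under each left-out library and 2 with DESeq2. In spermatocytes 10 became 5 with replicates 1 and 4 summed, and 6 (without WT replicate 1) to 11 (without WT replicate 3) with 1 library left out. The 2 calls on the difference between stages became 6 with DESeq2, 6 at a threshold of 0.05, 0 with replicates summed and 0 to 6 with 1 library left out (0 without WT spermatocyte replicate 2, WT spermatogonia replicate 3 or KO spermatogonia replicate 2 or 3, and 6 without WT spermatocyte replicate 3). Of the 6 with DESeq2, and of the 6 at 0.05, 5 had a larger log2 difference in spermatocytes and 1 a smaller. Within KO cells 0 became 1 with DESeq2 or at 0.05, and stayed 0 with any library left out. Within WT cells 5 became 8 with either, and 3 to 8 with 1 library left out, lowest without WT spermatogonia replicate 1 and highest without WT spermatocyte replicate 3. With a replicate block the members called were 1, 8 and 2 in spermatogonia, in spermatocytes and for the difference. Of all 21580 features tested in spermatogonia, the block fit called 38 higher and 81 lower, against 15 and 1 in the main fit. Same-numbered spermatocyte libraries correlated at 0.0773, 0.208, -0.00511 and 0.120, which cannot tell whether they share a litter or a sort day. Blocks could not be fitted between stages.

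For single copies in spermatogonia, 2 calls became 0 (pseudocount 0.01 or replicate block), 6 (pseudocount 1, or any TPM), 1 (mean TPM of at least 2), 5 (threshold 0.05), 36 (recovered reads) and 0 to 1 with 1 library left out. In spermatocytes 85 (73 higher, 12 lower) became 154 (147 higher, 7 lower, TPM times the TE share), 30 (replicate block), 35 (replicates 1 and 4 averaged), 156 (threshold 0.05) and 49 to 93 with 1 library left out, 49 without WT replicate 1 or 4 and 56 without KO replicate 3.

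Signs turned for values near 0. In spermatogonia IAPEY4_I-int (-0.00) became 0.00278 and 0.00344 with DESeq2's size factors and test, 0.0209 with library totals, 0.00677 with a mean count of 50, 0.0130 unfiltered, 0.0105 with the replicate block and 0.00317 with TMM on genes alone, and -0.264 to 0.359 with 1 library left out. With 1 library left out, IAPEY4_LTR ranged from -0.071 to 0.31, IAPEY5_LTR from -0.335 to 0.24, Dnmt3c from -0.21 to 0.29 and, in spermatocytes, Bicral from -0.0782 to 0.19. With library totals IAPEY2_LTR in spermatocytes became 0.43 and, between WT stages, IAPA_MM-int -0.55 and IAPEz-int -0.29, and Bicral became -0.146 with replicates summed. IAPA_MM-int ranged from -0.095 to 0.54 between WT stages and from -0.089 to 0.56 for the difference between stages. Of 1314 alternatives over 79 single values, 1168 kept direction and call, 87 lost a call, 32 gained one and 27 turned sign, and the causes were not tested. Library totals moved the median of all genes from 0.11 to 0.79 in spermatocytes, from 0.02 to -0.76 between WT stages and from 0.20 to 0.90 for the difference. Depth limits IAPEY3C_LTR, which had at most 47 counts in any library.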
